A study of Rattus norvegicus with 14 samples.

Results

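The genes described here are 10 genes of the hypoxia response, measured in thoracic aortas of Sprague-Dawley rats. They are 8 target genes (Ndrg1, Vegfa, Bnip3, Egln3, Adm, Ankrd37, Pdk1 and Car9) and the 2 oxygen-regulated transcription factor subunits Hif1a and Epas1. They were taken by gene symbol from the platform annotation of a 1-colour Affymetrix array, which held 14 probe sets for them among 31042 tested, and all 10 were found among 14217 genes with a single symbol. Where a gene had several probe sets, the brightest on average stood for it. The 2 groups were A-CRF, aortas of rats with chronic renal failure induced with adenine (8 arrays), and Control (6 arrays), with 1 array per sample. Both groups are described as thoracic aorta of the same strain, kept in RNAlater and frozen. The sources used here give no adenine dose, duration, age of the rats or diet of the controls. No label ties a sample to its own animal, and the p-values therefore cover only the spread among these samples, part of which may be technical.

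The hypoxia-inducible factors (HIFs) are pairs of an alpha subunit, Hif1a or Epas1, and the partner Arnt. When oxygen is plentiful, prolyl hydroxylases of the Egln family mark the alpha subunits for degradation through the Vhl ubiquitin ligase, so that their activity is set largely at the level of protein and not of transcript. When oxygen falls, the pair accumulates, binds the core motif of hypoxia response elements and raises genes of glucose use, mitochondrial turnover, vessel growth and pH control. In arteries the best known outputs are the endothelial growth factor Vegfa and the vasodilator peptide Adm.

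Values are log2 probe set summaries deposited by the authors, and the log base was inferred from their range, 4.82 to 12.64. Array medians lay between 5.62 and 5.64, and correlations between arrays between 0.970 and 0.997. A-CRF 1, A-CRF 4 and Control 1 had a larger difference between the 3' and 5' probe sets of GAPDH than the rest. It was 1.58 to 1.90 log2 units, against 0.37 to 0.55 elsewhere. A larger difference can mark shorter transcripts, but its cause was not tested. Smooth muscle markers, which define the aortic media, were well above the lowest value of the table in all 7 measured, with an array mean of 9.66 to 10.12 in A-CRF and 9.90 to 10.58 in Control.

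Ndrg1 was the member that changed. Every A-CRF array was below every Control array, whereas the other 9 members, among them Vegfa, Bnip3, Adm and both HIF alpha subunits, did not pass the test. In limma over all probe sets, 1 of 10 members was lower in A-CRF and 0 were higher at an adjusted p of 0.05, against 0.789% of all probe sets called lower and 1.26% called higher (2.05% in either direction). The members were chosen with earlier results of these data known, so setting their count beside these shares is a description and not a test. The median change of the members was -0.02 log2 units, beside -0.0020 over all tested probe sets. At an unadjusted p under 0.05 the count was likewise 1 of 10, against 14.4% of all probe sets. That count takes only the probe set that stands for each gene. The second probe sets of Ndrg1 (limma, unadjusted p = 0.021) and Pdk1 (limma, unadjusted p = 0.010) were also under 0.05. A change in a bulk sample can reflect fewer cells of a type or less RNA per cell, which cannot be told apart here.

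Ndrg1 (probe set 1371360_at) encodes a cytosolic protein that HIF, metal chelation and cell differentiation induce, and which is also abundant in the myelinating cells of peripheral nerve. Its log2 values in A-CRF were 8.69, 8.18, 8.48, 8.56, 8.61, 8.75, 9.10 and 8.95 on A-CRF 1 to 8, against 9.25, 9.27, 9.29, 9.23, 9.30 and 9.37 on Control 1 to 6. The groups did not overlap: the highest A-CRF value, on A-CRF 7, lay below the lowest Control value, on Control 4. Among all probe sets 1.38% had groups that did not overlap, and 1 of the 10 members did. The 8 A-CRF arrays averaged 8.66 ± 0.28 (SD) and the 6 Control arrays 9.28 ± 0.05 (SD). The change was -0.62 ± 0.11 log2 units (SE, 95% interval -0.86 to -0.39, limma, adjusted p = 0.014), a 1.54-fold lower level. An exact two-sided permutation test over the 14 samples gave p = 0.00067. As the groups do not overlap, no other assignment gives a lower A-CRF mean, so this test restates the separation. Its p-value is not adjusted for the number of genes, and the members were chosen with earlier results of these data known. By size the change of Ndrg1 ranked 19th among the 245 probe sets called lower.

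The A-CRF arrays were uneven for this gene. Ndrg1 was lowest on A-CRF 2 and highest on A-CRF 6, 7 and 8, and the SD in A-CRF was 0.28 against 0.05 in Control. A second Ndrg1 probe set (1391458_at), with a dimmer signal, had a lowest, median and highest value of 5.94, 6.15 and 6.25 in A-CRF, against 6.06, 6.30 and 6.42 in Control. All 8 A-CRF arrays lay below the Control median of that probe set, but the groups overlapped. Its change had the same sign and did not pass (-0.16 ± 0.06, SE, adjusted p = 0.22). With the mean of both probe sets in place of the brighter one, the change of Ndrg1 was -0.39 (adjusted p = 0.014).

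**Figure D1:**
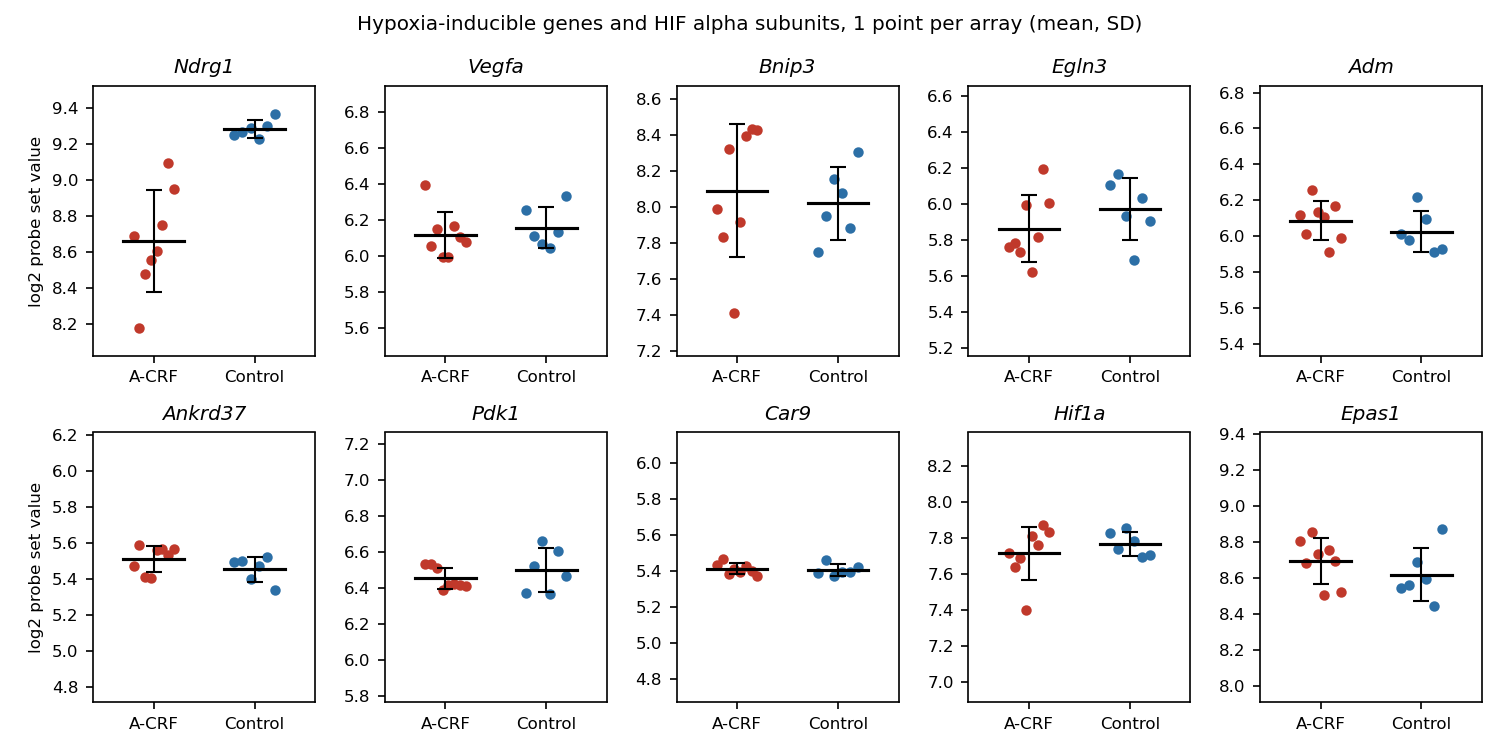
Log2 probe set value (y axis, a span of 1.5 log2 units in every panel) of each member on 8 A-CRF arrays (red, left) and 6 Control arrays (blue, right), with the mean and SD in black. Ndrg1 is separated between the groups, at 8.18 to 9.10 in A-CRF and 9.23 to 9.37 in Control, and the groups overlap in the other 9 panels.

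The call of Ndrg1 held whichever of the 14 arrays was dropped (changes of -0.68 to -0.55, highest adjusted p = 0.033). It also held without the 3 arrays of high GAPDH difference (-0.62, adjusted p = 0.037) and with a white adipocyte marker score as covariate (-0.58, adjusted p = 0.019). It was lost with a Schwann cell marker score as covariate (-0.62, 95% interval -0.94 to -0.30, adjusted p = 0.14), a setting in which 2 probe sets of the whole table passed. There the change kept its size and its interval widened, from -0.86 to -0.39 without a covariate. All A-CRF arrays but A-CRF 5 had a Schwann score above every Control array, so this fit can hardly separate the score from the group. The call was also lost with a clock gene score as covariate (-0.48, 95% interval -0.74 to -0.23, adjusted p = 0.13), in which 21 probe sets of the whole table passed.

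The clock gene score is the mean of scaled Dbp, Per2, Per3, Nr1d1, Nr1d2 and Tef minus that of Arntl, Npas2 and Clock. A-CRF 6, 7 and 8 scored 0.71, 0.57 and 1.56, the remaining 5 arrays of that group -2.65 to -1.05, and the Control arrays -0.54 to 2.02. The 3 A-CRF arrays with a score above 0 were those with the highest Ndrg1, and their Ndrg1 values, 8.75, 9.10 and 8.95, were also below each Control array. Without those 3 arrays, a setting chosen after seeing the data, the change of Ndrg1 was -0.78 (95% interval -0.95 to -0.62, adjusted p = 0.0025). Leaving out the A-CRF arrays with the highest Ndrg1 had to enlarge the fall. The 5 arrays left all score below the Control range, so this fit cannot separate Ndrg1 from the clock genes. The part of the clock genes in the result was not tested beyond these fits.

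**Figure D2:**
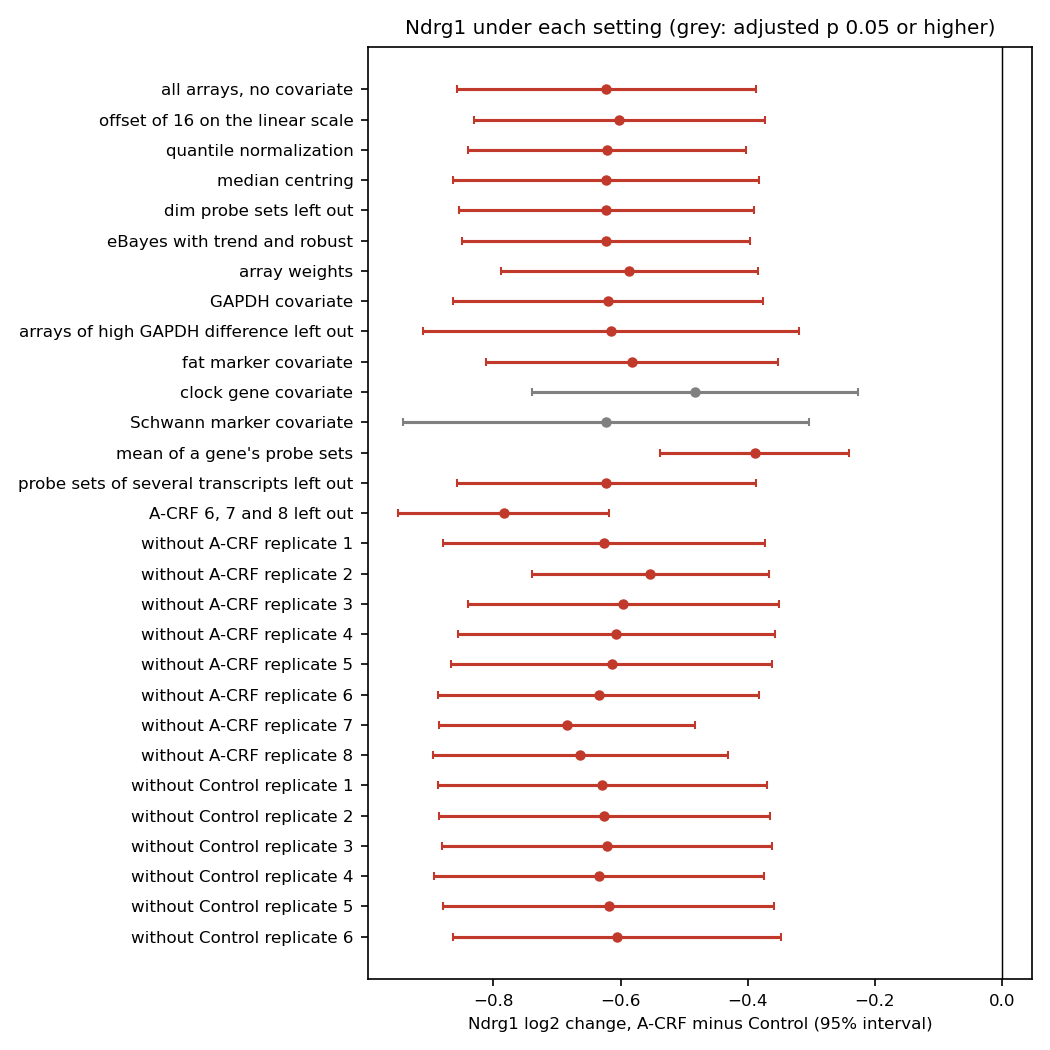
Ndrg1 log2 change, A-CRF minus Control, with its 95% interval (x axis) under each setting (rows), red where the adjusted p was under 0.05. The change lies below 0 in every row, which in rows with arrays left out follows from the groups not overlapping. The rows with the clock gene and the Schwann marker covariate are those that did not pass (grey).

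**Figure D3:**
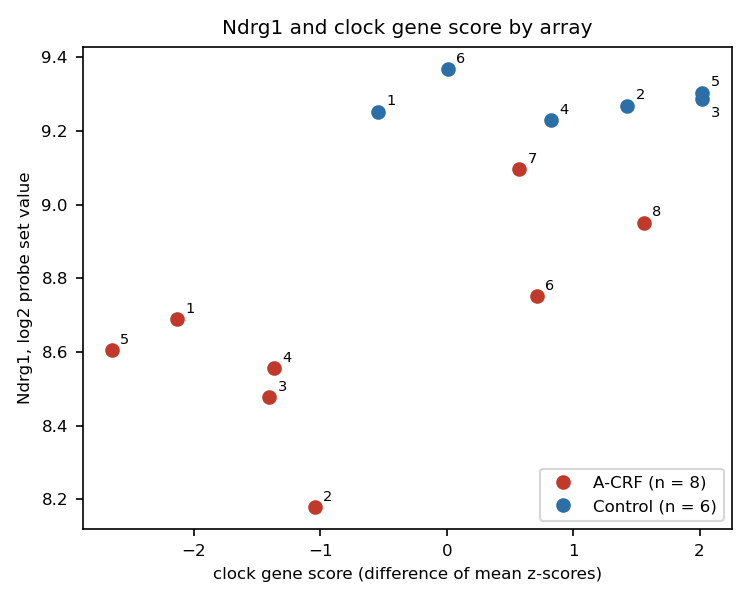
Ndrg1 log2 value (y axis) against the clock gene score (x axis, a difference of mean z-scores) of each array, numbered by replicate, for A-CRF (red) and Control (blue). A-CRF 6, 7 and 8 have scores above 0, as 5 of 6 Control arrays do, and all A-CRF arrays lie below all Control arrays on the y axis.

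Markers of cells that can carry Ndrg1 gave the following values. Of 7 Schwann cell markers 1 was higher in A-CRF, Pmp22 (0.21), which is also made outside nerve. The myelin protein Mbp did not pass at -0.17 (adjusted p = 0.28), with 7 of 8 A-CRF arrays below the Control median, nor did Egr2 at 0.42 (adjusted p = 0.076), with 8 of 8 above it. S100b at 0.25 (adjusted p = 0.48) and Prx at 0.01 (adjusted p = 0.93) did not pass either. Of the 7 changes 5 were above 0 and 2 below, so the Schwann score averages markers that moved in both directions. Sox10, Mag and Egr2 lay within 1 log2 unit of the floor of the table, its lowest value. The Schwann marker mean was 6.24 to 6.51 in A-CRF and 6.21 to 6.28 in Control. These ranges overlap through A-CRF 5 alone, at 6.24, and every other A-CRF array was above each Control array. The score thus nearly follows the group label, and a fit with it as covariate can hardly separate the score from the group. Of 7 white adipocyte markers none passed, with means of 6.92 to 8.52 in A-CRF and 7.80 to 8.51 in Control. Of 8 macrophage markers 7 were higher in A-CRF, with means of 7.39 to 7.82 against 6.97 to 7.14 in Control. Among smooth muscle markers, 1 of 7 was lower, the myosin heavy chain Myh11. Of these 7 changes 6 were below 0 and 1 above, with a median of -0.26. None passed among 8 endothelial, 5 brown adipocyte, 6 fibroblast or 3 erythroid markers, and 1 of 5 skeletal muscle markers was lower, Ckm. The part of macrophages and smooth muscle in the fall of Ndrg1 was not tested.

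The HIF alpha subunits did not pass the test. Hif1a, the subunit that most cells use, had a lowest, median and highest value of 7.40, 7.74 and 7.87 in A-CRF, against 7.69, 7.76 and 7.85 in Control, and the groups overlapped. Its change was -0.05 ± 0.06 (SE, 95% interval -0.18 to 0.08, adjusted p = 0.81). The lowest Hif1a value was that of A-CRF 4, and without the 3 arrays of high GAPDH difference the change was 0.01. Epas1, which encodes HIF-2 alpha and is prominent in vessel walls, was at 8.51, 8.71 and 8.86 in A-CRF, against 8.45, 8.58 and 8.87 in Control, again as lowest, median and highest. Its change was 0.08 ± 0.07 (SE, 95% interval -0.07 to 0.22, adjusted p = 0.72). A second Epas1 probe set was near the lowest value in the table, with a change of 0.0043. The Control means of Hif1a and of the brighter Epas1 probe set lay 2.94 and 3.80 log2 units above that lowest value.

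Promoter windows of 4 targets are shown because they carry the letters that HIF recognises in genes whose transcripts did not pass. RefSeq windows of 300 bases on GRCr8, from 250 bases before to 50 bases after the start, were found for 9 of the 10 members, all but Ndrg1. They were searched on both strands for ACGTG and GCGTG, the forms of the HIF core motif. An ACGTG on both strands at once is the sequence CACGTG, the E-box that clock factors and Myc recognise, and it was counted as 2 overlapping matches. A match was present in 5 of the 9 members with a window, Bnip3, Ankrd37, Pdk1, Car9 and Hif1a, and in 41.6% of all 33469 windows in the table (ACGTG in 19.3%, GCGTG in 29.7%, CACGTG in 6.42%). The windows of Vegfa, Egln3, Adm and Epas1 held no match, which says only that these letters are not in that stretch. The windows of 4 targets are printed with each match in capitals. The Ankrd37 window (chr16:53001257-53001556, plus strand) held 5 matches, the Bnip3 window (chr1:203154913-203155212, minus strand) 4, the Pdk1 window (chr3:77113264-77113563, plus strand) 4 and the Car9 window (chr5:62558774-62559073, plus strand) 1.
Ankrd37: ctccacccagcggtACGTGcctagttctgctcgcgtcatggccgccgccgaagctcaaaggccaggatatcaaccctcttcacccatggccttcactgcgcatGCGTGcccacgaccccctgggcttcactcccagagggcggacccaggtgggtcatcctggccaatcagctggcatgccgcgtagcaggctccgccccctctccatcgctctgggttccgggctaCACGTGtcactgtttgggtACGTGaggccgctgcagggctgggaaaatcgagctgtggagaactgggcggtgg
Bnip3: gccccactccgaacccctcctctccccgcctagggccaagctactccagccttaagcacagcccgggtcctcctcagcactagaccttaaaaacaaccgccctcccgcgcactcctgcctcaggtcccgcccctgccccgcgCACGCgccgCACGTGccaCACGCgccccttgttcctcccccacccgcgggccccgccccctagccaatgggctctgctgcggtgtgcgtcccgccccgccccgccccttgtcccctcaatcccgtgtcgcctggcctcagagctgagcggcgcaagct
Pdk1: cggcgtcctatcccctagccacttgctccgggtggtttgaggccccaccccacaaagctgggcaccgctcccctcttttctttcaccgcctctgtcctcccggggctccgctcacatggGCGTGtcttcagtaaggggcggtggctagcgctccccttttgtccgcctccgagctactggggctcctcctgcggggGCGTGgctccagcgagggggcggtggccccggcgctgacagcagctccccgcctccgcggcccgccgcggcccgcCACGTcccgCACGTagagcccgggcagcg
Car9: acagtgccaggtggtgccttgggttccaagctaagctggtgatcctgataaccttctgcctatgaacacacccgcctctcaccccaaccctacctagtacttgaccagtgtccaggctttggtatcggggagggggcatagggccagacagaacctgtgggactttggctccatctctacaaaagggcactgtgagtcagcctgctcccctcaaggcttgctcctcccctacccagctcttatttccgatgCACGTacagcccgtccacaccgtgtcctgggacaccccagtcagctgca
The windows of Ankrd37, Bnip3 and Hif1a, the last not printed, each held 1 CACGTG. It lay 23 bases before the start in Ankrd37, 99 in Bnip3 and 229 in Hif1a. A match is a description of the letters and not evidence of binding in the aorta.

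The targets of mitochondrial turnover and glucose use, 2 of which are printed above, did not pass. Bnip3, a mitochondrial outer membrane protein that triggers mitophagy, had 7.41, 8.15 and 8.43 as lowest, median and highest value in A-CRF, against 7.75, 8.01 and 8.31 in Control. Its change was 0.07 ± 0.16 (SE, 95% interval -0.26 to 0.40, adjusted p = 0.92), the widest interval among the members. The A-CRF arrays ran from well below to above the Control range: A-CRF 4 had 7.41, while A-CRF 3, 6, 7 and 8 had 8.32, 8.39, 8.43 and 8.43. Without A-CRF 6, 7 and 8 the change was -0.13 and did not pass (adjusted p = 0.74). Pdk1, the kinase that inhibits pyruvate dehydrogenase and so the conversion of pyruvate to acetyl-CoA, had 6.39, 6.42 and 6.53 in A-CRF, against 6.37, 6.50 and 6.66 in Control. Its change was -0.05 ± 0.05 (SE, adjusted p = 0.76). A second Pdk1 probe set was at 5.60, 5.73 and 5.99 in A-CRF, against 5.81, 5.95 and 6.06 in Control, with 7 of 8 A-CRF arrays below the Control median. That probe set had a change of -0.18 ± 0.06 (SE, adjusted p = 0.15) and did not pass.

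The secreted targets were dim and similar in the groups. Vegfa, which drives vessel growth and permeability, had 5.99, 6.09 and 6.40 in A-CRF, against 6.05, 6.12 and 6.33 in Control, as lowest, median and highest. The change was -0.04 ± 0.06 (SE, 95% interval -0.17 to 0.09, adjusted p = 0.88), and a second probe set gave -0.0091. The highest A-CRF value was that of A-CRF 1. Adm, the precursor of the vasodilator adrenomedullin, had 5.92, 6.11 and 6.26 in A-CRF, against 5.92, 6.0 and 6.22 in Control. Its change was 0.06 ± 0.06 (SE, 95% interval -0.06 to 0.18, adjusted p = 0.74). In both genes the groups overlapped.

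Egln3, the prolyl hydroxylase that HIF itself induces, had 5.62, 5.80 and 6.19 in A-CRF, against 5.69, 5.98 and 6.17 in Control. Its change was -0.11 ± 0.09 (SE, 95% interval -0.30 to 0.08, adjusted p = 0.69). Among the probe sets that stand for the members other than Ndrg1 this was the largest change in size; the second Pdk1 probe set had a larger one. Ankrd37, a small ankyrin repeat protein, had 5.41, 5.55 and 5.59 in A-CRF, against 5.34, 5.48 and 5.52 in Control, a change of 0.06 ± 0.04 (SE, adjusted p = 0.55). Car9, the tumour-associated carbonic anhydrase of the cell surface, had 5.37, 5.40 and 5.47 in A-CRF, against 5.37, 5.39 and 5.46 in Control, a change of 0.0063 ± 0.02 (SE, adjusted p = 0.95). The Control means of Ankrd37 and Car9 lay within 1 log2 unit of the floor of the table, so a low transcript level in either group would not be detectable there. The 95% interval of Ndrg1 lay below those of the 9 other members, whose lower ends were -0.30 or higher, although the difference between genes was not itself tested.

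**Figure D4:**
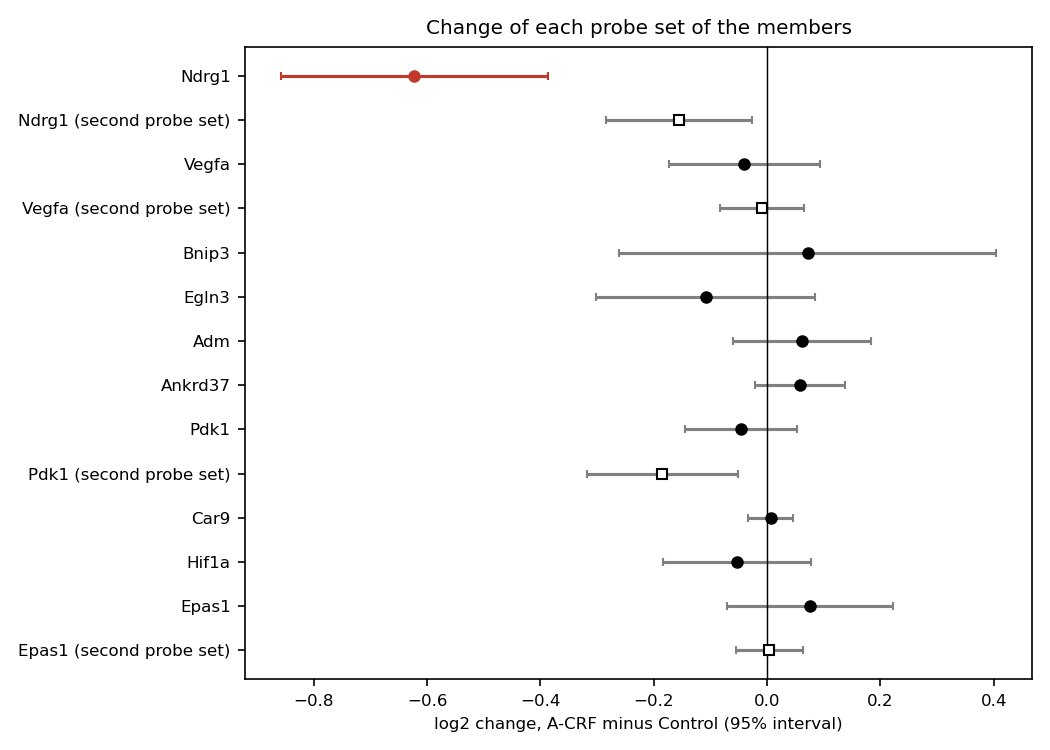
Log2 change, A-CRF minus Control, with its 95% interval (x axis) for the 14 probe sets of the members, filled for the probe set that stands for a gene and open for a second one. The interval of Ndrg1, -0.86 to -0.39, is the one that passed (red). The intervals of the other 9 filled points include 0, and those of the second probe sets of Ndrg1 and Pdk1 lie below 0 without passing after adjustment.

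Further genes of the hypoxia response were taken from a list of 10 groups, of which 84 were measured. The list was chosen with earlier results of these data known, so its counts are a description. In limma 4 were higher, 3 were lower and 77 did not pass, beside 2.05% of all probe sets, and the list median was -0.02. At an unadjusted p under 0.05 there were 25 of 84, against the 14.4% of all probe sets given above. In 5 of the 84 the groups did not overlap, against 1.38% of all probe sets, and 22 had Control means within 1 log2 unit of the floor. The count of 7 was 13 without the 3 arrays of high GAPDH difference, 11 with array weights, 1 with the clock gene covariate (Aldoc) and 0 with the Schwann marker covariate. Of 3 further HIF subunits 1 rose: Arnt2, a partner subunit best known from neural tissue, by 0.29 ± 0.04 (SE, adjusted p = 0.0042). It had 5.57, 5.63 and 5.79 in A-CRF, against 5.28, 5.37 and 5.45 in Control, a signal near the lowest value in the table. The common partner Arnt was nearer to that value, with a change of 0.01 ± 0.02. None of 8 genes of oxygen sensing and HIF turnover passed, with 7 of 8 changes below 0. The largest were -0.22 ± 0.09 for Rbx1, a subunit of the Vhl ligase, and -0.17 ± 0.22 for Cited2, which competes with HIF for its coactivator. For the hydroxylases Egln1 and Egln2 the values were -0.08 ± 0.07 and -0.07 ± 0.06. Both passed without the 3 arrays of high GAPDH difference, at -0.11 for Egln1 (limma, adjusted p = 0.048) and -0.11 for Egln2 (adjusted p = 0.040).

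Of 17 genes of glucose transport and glycolysis 1 fell, the aldolase Aldoc, by 0.68 ± 0.08 (SE, adjusted p = 0.0023), and the list median was -0.06. Aldoc had 5.66, 5.87 and 5.97 in A-CRF, against 6.33, 6.51 and 6.85 in Control, with no overlap. Of 9 genes of mitochondria and autophagy 1 fell, Higd1a, a hypoxia-induced protein of the inner mitochondrial membrane, by 0.62 ± 0.10 (SE, adjusted p = 0.010). It had 7.58, 8.08 and 8.23 in A-CRF, against 8.39, 8.59 and 8.80 in Control, likewise with no overlap. The other pyruvate dehydrogenase kinases did not pass, with changes of -0.14 ± 0.09 for Pdk2, 0.0081 ± 0.04 for Pdk3 and -0.38 ± 0.31 for Pdk4. Of 4 glycogen genes 1 fell, Ppp1r3b, which targets a phosphatase to glycogen, by 0.85 ± 0.14 (SE, adjusted p = 0.0089). Its groups overlapped through A-CRF 1 at 6.45, while the other A-CRF arrays were at 5.69 or lower and the lowest Control value was 6.32.

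Genes of collagen modification held 3 of the 4 rises, with 3 of the 6 measured above 0 and 3 below. Lox, the copper enzyme that cross-links collagen and elastin, rose by 0.74 ± 0.14 (SE, adjusted p = 0.020), and its relative Loxl2 by 0.36 ± 0.06 (adjusted p = 0.0091), whose signal was near the lowest value in the table. Plod2, a collagen lysyl hydroxylase, rose by 0.43 ± 0.07 (adjusted p = 0.011). Plod2 had 9.15, 9.43 and 9.61 in A-CRF, against 8.77, 8.99 and 9.14 in Control, with no overlap. The prolyl hydroxylase subunits of collagen, named after their values were seen, did not pass, with -0.42 ± 0.12 for P4ha1 (adjusted p = 0.0998, 8 of 8 A-CRF arrays below the Control median) and -0.21 ± 0.08 for P4ha2 (adjusted p = 0.19, 7 of 8 below). Of 15 angiogenic and vasoactive genes none passed, the largest changes being 0.68 ± 0.18 for the lipase inhibitor Angptl4 (adjusted p = 0.071) and 0.26 ± 0.08 for the chemokine Cxcl12 (adjusted p = 0.10). Angptl4 passed without Control 6 (0.87, adjusted p = 0.0097) and with dim probe sets left out (0.68, adjusted p = 0.048), and Cxcl12 with the white adipocyte covariate (0.30, adjusted p = 0.039). For the adrenomedullin receptor genes Calcrl and Ramp2 the values were 0.01 ± 0.02 and -0.07 ± 0.07. None of 3 genes of pH and lactate passed, with 0.23 ± 0.09 for the lactate exporter Slc16a3 and -0.20 ± 0.07 for Slc16a1, which passed without A-CRF 1 (-0.24, adjusted p = 0.037) and with array weights (-0.22, adjusted p = 0.046). None of 3 iron genes passed, with 0.29 ± 0.20 for ceruloplasmin, Cp, and 0.05 ± 0.08 for the transferrin receptor Tfrc.

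The relatives of Ndrg1 did not pass. Ndrg2 gave a change of -0.29 ± 0.10 (SE, adjusted p = 0.17), Ndrg3 0.03 ± 0.03 (adjusted p = 0.77) and Ndrg4 0.20 ± 0.06 (adjusted p = 0.090), of which Ndrg4 passed without A-CRF 6 (0.22, adjusted p = 0.040). They belong to a group of 16 genes of stress, chromatin and transcription of which 0 passed, the largest change being -0.36 ± 0.09 for the lipoprotein receptor Vldlr (adjusted p = 0.060). Vldlr passed in 5 other settings, with changes of -0.43 to -0.31: without Control 6, without A-CRF 3, with array weights, with dim probe sets left out and with the mean of its probe sets.

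**Figure D5:**
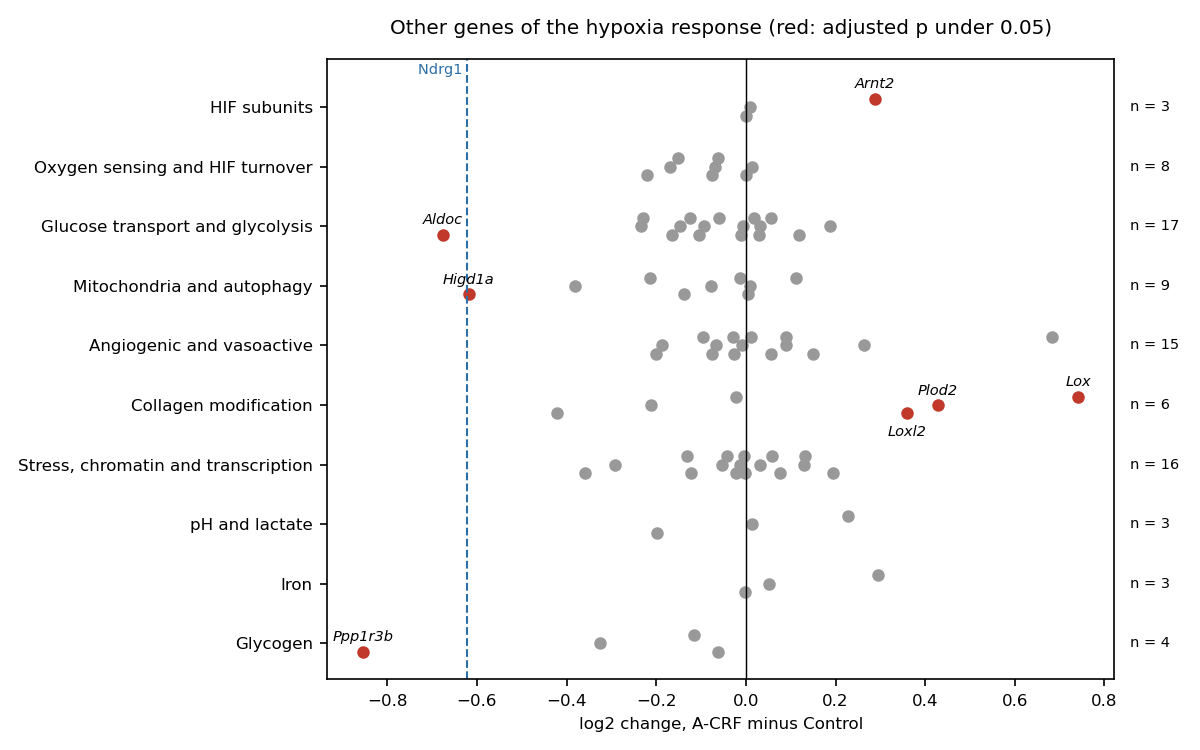
Log2 change, A-CRF minus Control (x axis), of 84 other genes of the hypoxia response in 10 groups (1 point per gene, number at right), with genes past an adjusted p of 0.05 in red and the change of Ndrg1 as a dashed line. The called genes lie on both sides of 0, from -0.85 for Ppp1r3b to 0.74 for Lox, and most genes lie close to 0.

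The genes whose values followed Ndrg1 most closely were found from values minus group means over the 14 arrays, among 9377 genes brighter on average than the median probe set. They were Atp6v0e2 (Pearson's r = 0.91, Spearman's rho = 0.76), Hsf2 (r = 0.91, rho = 0.87), Stt3a (r = 0.89, rho = 0.70), Stx7 (r = 0.89, rho = 0.75) and Tmem218 (r = 0.89, rho = 0.84). These were picked as the highest of all candidates and share the arrays' RNA quality, so they are a description with no test. None of the 5 passed between the groups, with changes of -0.16 to 0.14. Among the members, the same measure with Ndrg1 was 0.57 for Bnip3, 0.53 for Hif1a and 0.52 for Egln3, and between -0.40 and 0.18 for the other 6. Ndrg1 varied more within A-CRF (SD 0.28) than within Control (SD 0.05), so all these correlations rest mainly on the 8 A-CRF arrays.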

How the data were processed

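The values deposited by the authors are log2 probe set summaries, 1 per probe set and array. The submitters' processing notes name PLIER, without a version; the sources used here state no background correction, normalization or offset, and the log base was inferred from the range. An added offset would compress changes of dim genes. The table holds 31099 probe sets, and 57 with AFFX identifiers, the manufacturer's controls, were dropped. Symbols came from the platform annotation, which names 20826 probe sets with 1 symbol, while 436 have more than 1 and 9780 lack one; symbols looked up by Entrez identifier in RefSeq's gene table for 20758 probe sets changed in 0. Groups came from the treatment label, and 0 value columns were unmapped. The groups were compared in R (version 4.3.3) with limma (version 3.58.1; lmFit and eBayes, group as the only factor, two-sided) over 31042 probe sets, with Benjamini-Hochberg adjustment and a threshold of 0.05. The number of arrays limits the precision. The fit was tested on simulated data of 31042 probe sets, where it recovered 84% of changes of 0.3 and 95% of changes of 0.6 log2 units, with 13 false calls. The simulated noise was independent between probe sets, with no effect shared by an array. The changed probe sets were picked at random, so these shares do not apply to a single noisy gene such as Bnip3. "Near the lowest value" means a Control mean within 1 log2 unit of it. Named were all members, the list genes past the threshold (up to 12), the 2 largest changes of a group with none, the Ndrg, Egln and Pdk relatives, Arnt, Calcrl and Ramp2, and the 5 genes most like Ndrg1. Alternatives were an offset of 16, quantile normalization, median centring, a 40th percentile filter, eBayes options, array weights, GAPDH, fat, clock and Schwann covariates, other probe set rules and left-out arrays. Members and lists were chosen with earlier results of these data known. Promoter sequences are RefSeq's (GRCr8).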

Additional observations from a re-analysis of the deposited data

Results flagged for a closer look

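Each gene was looked at within each group for 1 array far from the nearest other array relative to the group's range. Of 74 groups tested 8 had such an array, and chance gives about 1 in 20. Among the members this was Vegfa, at 6.40 on A-CRF 1 with the next A-CRF array at 6.16. A-CRF 1 also stood apart for Ppp1r3b (6.45, next 5.69) and Slc16a1 (6.22, next 5.91), and it was the array with the highest GAPDH 3' minus 5' difference, 1.90. Tfrc was at 6.41 on A-CRF 4, with the next array at 6.19. Among the Control arrays, Cited2 was at 9.21 on Control 3 (next 8.34), Angptl4 at 6.74 on Control 6 (next 5.89), Ndrg2 at 9.02 on Control 6 (next 8.62) and Egln1 at 7.38 on Control 1 (next 7.17). The cause was not tested.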

How the results depend on the processing

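Ndrg1 kept its sign in the 14 fits without 1 array and in the 15 other settings. As its groups do not overlap, leaving out arrays could not turn the sign. The percentile filter, the eBayes options, the rule on probe sets of several transcripts and the permutation test leave its change at -0.62 by construction. Ndrg1 lost its call with the clock gene covariate (-0.48) and the Schwann marker covariate (-0.62), where 0 members passed. Members called numbered 1 in all fits without 1 array. Probe sets called (636) numbered 1457 with array weights, 1041 with the GAPDH covariate, 21 with the clock and 2 with the Schwann covariate, and 307 to 979 without 1 array; it moved by over 1.5 times without A-CRF 1 (979), 3 (416) or 5 (352) and without Control 2 (420), 4 (345), 5 (307) or 6 (365). Other hypoxia pathway genes called (7) numbered 11 with array weights, 13 without the arrays of high GAPDH difference, 1 with the clock and 0 with the Schwann covariate, and 7 to 10 without 1 array. Of the 7 called, Aldoc kept its call with the clock covariate. None of the changes that turned sign passed in the setting where it did so. They were, with array weights, Tfrc (-0.011) and Pdk3 (-0.018); without high GAPDH arrays, Car9 (-0.00066), Hif1a (0.011) and Pdk3 (-0.012); with the fat covariate, Pdk3 (-0.013); with the clock covariate, Car9 (-0.00013), Tfrc (-0.024) and Arnt (-0.016). With the Schwann covariate they were Bnip3 (-0.15), Adm (-0.0082), Epas1 (-0.052), Cp (-0.054) and Egln1 (0.0056). Without A-CRF 6, 7 and 8, a setting chosen after seeing the data, it was Bnip3 (-0.13). Without 1 array, ranges crossed 0 for Car9 (-0.0014 to 0.018), Pdk3 (-0.013 to 0.023), Cited2 (-0.27 to 0.0095) and Tfrc (-0.012 to 0.10). With probe sets averaged per gene, Ndrg1 (-0.39), Ppp1r3b (-0.45), Higd1a (-0.39), Loxl2 (0.19) and Arnt2 (0.15) kept their calls with changes over 1.5 times smaller. Of the genes followed singly through the settings, those that passed in another setting but not above were Angptl4, Cxcl12, Egln1, Egln2, Ndrg4, Slc16a1 and Vldlr, with values given above. The causes were not tested. No paired analysis was possible because the labels give the groups no shared replicate numbers.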
